A study of Mus musculus with 3 samples.

Results

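Cd8a T cells of mouse skin were taken from 2 single-cell libraries as cells that carried transcripts of a CD8 chain and of the T cell receptor complex. A cell barcode was kept when it had at least 200 detected genes and no more than 20% of its UMIs (unique molecular identifiers, each counting 1 captured transcript) in mitochondrial genes. Among kept cells, a Cd8a T cell had at least 1 UMI of Cd8a or Cd8b1, UMIs in at least 2 of the 5 genes Cd3e, Cd3d, Cd3g, Trac and Trbc2, and 0 UMIs of Cd4, Foxp3, Trdc, C1qb and Krt5. The cells were thus selected on measured UMIs, and the levels of those genes in the chosen cells are a description of the choice. In all, 1867 of 25791 kept skin cells met it, 1379 in the RHS library and 488 in the control library.

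The skin libraries held immune cells enriched from mouse skin with magnetic beads against CD45 and captured on the BD Rhapsody system. The RHS library came from mice given RHS and MC903, and the control library from mice given MC903 alone. MC903 is calcipotriol, a vitamin D analogue that causes a dermatitis-like inflammation when painted on mouse skin. RHS is not spelled out in the labels. MC903 is thus shared by both groups, and no skin without MC903 was analysed here, although the preparation text also mentions ethanol-treated mice. The sources used here do not state the strain, the age or how many mice each skin library pooled. The other library of the series, made from nuclei of sympathetic ganglia, was not used.

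CD8 T cells recognise peptides presented by MHC class I molecules and can kill the presenting cell by releasing perforin and granzymes, serine proteases stored in secretory granules. In skin they include cells that have settled in the epidermis as resident memory cells as well as cells recruited during inflammation, and they also secrete interferon gamma and chemokines. Granzyme A and granzyme B are the granzymes most often used to recognise such cells, granzyme K marks a less cytolytic population, and the mouse has further granzymes, among them granzymes C to G, that have no human counterpart of the same name and are encoded near granzyme B.

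With 1 library in each group there was no replicate. No p-value can be given for any difference between RHS and control, and all intervals below are 95% intervals for counting error only, exact Clopper-Pearson for shares other than 0, exact Poisson for counts and exact conditional binomial for ratios. PCR duplicates had been collapsed to UMIs, but cells of 1 library share their source and are not replicates. The RHS library held 13339 deposited barcodes and 52762575 UMIs, of which 13068 barcodes were kept, and the control library 12979 barcodes and 55200785 UMIs, of which 12723 were kept. Both libraries listed 5 identical barcodes, and 1 of these met the Cd8a rule in either library. The Cd8a T cells had a median of 2131 UMIs and 1103 genes per cell in RHS, and 2572 UMIs and 1257 genes in control, so control cells were somewhat deeper. Their UMIs summed to 3373292 in RHS and 1406218 in control, which sets the finer precision on the RHS side.

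The T cell label was checked on markers outside the rule. Of these, Lck, the kinase that starts receptor signalling, stood at 573 CPM (UMIs of a gene per 1000000 UMIs of the same cells) in RHS and 613 CPM in control, against 42.1 CPM and 36.2 CPM in the other kept cells. Cd28, a costimulatory receptor, stood at 332 CPM in RHS and 342 CPM in control, against 37.7 CPM and 36.6 CPM, and Cd5, Cd6, Bcl11b and Trbc1 were likewise above the other kept cells of their library. Both CD8 chains were found together in 999 RHS cells and 368 control cells, Cd8a alone in 228 and 77, and Cd8b1 alone in 152 and 43. Cd8a (ENSMUSG00000053977) averaged 1240 CPM in RHS and 1340 CPM in control, and Cd8b1 (ENSMUSG00000053044) 833 CPM in RHS and 797 CPM in control. Ncr1, which marks natural killer cells, and the receptor gene Trdv4 had no UMI in either library, as had the eosinophil genes Siglecf, Prg2 and Epx. Other markers of these types were present. Eomes, also a natural killer marker, was found in 31 RHS cells and 10 control cells. Gamma-delta T cell markers summed to 14.8 CPM in RHS and 29.2 CPM in control, and eosinophil markers to 0.889 CPM in RHS and 0 in control.

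The 5 exclusion genes removed 173 of 1552 candidate cells in RHS and 66 of 554 in control, most often for C1qb in RHS (102 cells) and for Cd4 in control (29 cells). At the edge of the rule, 88 RHS cells and 27 control cells carried exactly 2 receptor complex genes and were inside it. Another 31 RHS cells and 12 control cells met every other condition with exactly 1 such gene and were outside. Gzma, a marker not used by the rule, was found in 26.1% of the RHS cells and 22.2% of the control cells just inside, and in 29.0% and 16.7% of those just outside. Among cells with all 5 genes it was found in 42.9% of 609 RHS cells and 44.7% of 235 control cells. Lyz2, a gene of macrophages and neutrophils, stood at 1238 CPM in RHS and 1823 CPM in control just inside the rule, at 4146 CPM and 65.4 CPM just outside it, and at 496 CPM and 116 CPM in cells with all 5 genes. Cells at the edge were shallower, with a median of 1544 UMIs in RHS and 1411 in control just inside.

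Cd8a T cells made up a larger share of the RHS library than of the control library, and the other T cell groups did not. They were 10.6% of kept cells in RHS (10.0 to 11.1) and 3.84% in control (3.51 to 4.18), a ratio of 2.75 (2.48 to 3.06). Conventional Cd4 T cells, gated alike with Cd4 and without Foxp3, were 4.29% in RHS (561 cells) and 4.98% in control (633 cells), a ratio of 0.863 (0.769 to 0.968). Cd4 T cells with Foxp3, the transcription factor of regulatory T cells, were 1.66% in RHS (217 cells) and 1.89% in control (240 cells), a ratio of 0.880 (0.729 to 1.06) whose interval holds 1. Gamma-delta T cells with a Trdc UMI were 1.45% in RHS (189 cells) and 4.30% in control (547 cells), a ratio of 0.336 (0.284 to 0.398). Natural killer cells numbered 12 in RHS and 19 in control. The bar plot of the T cell groups shows these shares.

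**Figure D1:**
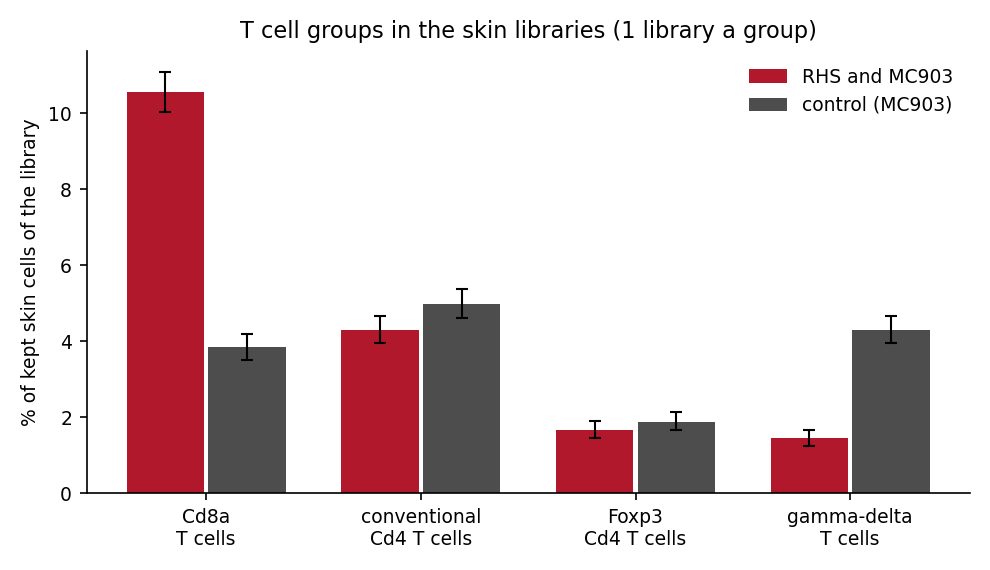
Share of kept skin cells in each T cell group (y axis, percent of the kept cells of the library) in RHS (red) and control (grey), with 1 library a group and error bars for the exact 95% counting interval. Cd8a T cells stand at 10.6% in RHS and 3.84% in control, and gamma-delta T cells at 1.45% in RHS and 4.30% in control.

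The size of the difference depended on what the cells were counted against. Among cells with a UMI of Ptprc, the gene of CD45, Cd8a T cells were 16.1% in RHS (1198 of 7463) and 7.28% in control (425 of 5835), a ratio of 2.20 (1.97 to 2.47). Among all cells with at least 2 receptor complex genes they were 42.0% in RHS (of 3286) and 18.1% in control (of 2694), a ratio of 2.32 (2.09 to 2.57). Among Cd8a and Cd4 T cells together they were 63.9% in RHS (of 2157) and 35.9% in control (of 1361), a ratio of 1.78 (1.61 to 1.98). All of these are shares of captured cells, so more Cd8a T cells and fewer cells of other kinds cannot be told apart, and the part of the bead selection in them was not tested.

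Outside the genes of the rule, the Cd8a T cells of both libraries had 20 leading genes by their level over all other kept cells, granzymes first. This is a description of the chosen cells, with no test. Gzmk (ENSMUSG00000042385), granzyme K, stood at 191 CPM in RHS Cd8a T cells, 67.4 times the level of the other RHS cells, and at 230 CPM in control Cd8a T cells, 313 times that of the other control cells. Gzma (ENSMUSG00000023132), granzyme A, stood at 1469 CPM in RHS, 53.5 times, and at 1718 CPM in control, 105 times. Nkg7, a membrane protein of cytotoxic granules, was 30.5 times higher in RHS and 38.2 times in control. Nkg7 was not confined to Cd8a T cells, with 312 CPM in RHS and 345 CPM in control in conventional Cd4 T cells, and Gzma stood at 504 CPM and 536 CPM in natural killer cells. Ms4a4b, a membrane protein of T cells, was 25.8 and 30.7 times higher, and Fasl, the death ligand that triggers Fas on target cells, 24.4 and 28.1 times. The other leading genes included the killer lectin receptor Klrc1 (21.0 times in RHS and 25.2 times in control), the inhibitory receptor Cd160 (21.2 and 23.3 times), Tbx21, the transcription factor T-bet of type 1 responses (17.6 and 21.3 times), and the chemokine receptor Cxcr3 (17.3 and 28.3 times), with Themis, Gimap4, Gimap7, Ctsw, Sla2, Sh2d2a and Ubash3a among the rest of the 20.

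Between RHS and control, most genes of the Cd8a T cells had close levels. Of 6387 genes with at least 50 counts in the higher library, 218 were at least 1.5-fold higher in RHS with an interval that left out 1 (3.41%), and 230 were at least 1.5-fold lower by the same rule (3.60%). Over the 8549 genes with at least 20 counts, used below for the gene lists, 326 were called higher (3.81%) and 409 lower (4.78%), and the median of all log2 ratios was -0.01. The shares of 3.81% and 4.78% are the comparison for each count of called list members below. Genes called this way are written below as higher or lower, and this is a rule of size and counting error and not a test over animals.

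Transcripts of other cell types moved with many of the higher calls. Of the 218 genes called higher, 155 stood at a lower level in RHS Cd8a T cells than in the other RHS cells. The summed level of 8 macrophage and monocyte markers was 1031 CPM in RHS Cd8a T cells and 385 CPM in control ones, that of 5 mast cell and basophil markers 339 CPM and 50.5 CPM, and that of 4 fibroblast markers 198 CPM and 32.7 CPM. Single cells held much of this. In RHS, 1 cell held 437 of the 632 UMIs of Mcpt4, a mast cell protease, and 1 cell held 247 of the 335 UMIs of Col1a1, a collagen chain. Melanocyte markers went the other way, with 3.56 CPM in RHS and 109 CPM in control, where 1 cell held 74 of the 79 UMIs of Dct. Keratinocyte markers summed to 33.5 CPM in RHS and 42.7 CPM in control. Those of dendritic cells, which include MHC class II genes, summed to 1977 CPM in RHS and 1429 CPM in control, of Langerhans cells to 73.5 CPM and 70.4 CPM, of neutrophils to 21.6 CPM and 5.69 CPM, and of endothelial cells to 45.7 CPM and 30.6 CPM. B cell markers reached 5.04 CPM in RHS and 0 in control, and eosinophil markers 0.889 CPM and 0. Among lymphoid lists, the markers of natural killer cells, Gzma among them, summed to 1523 CPM in RHS and 1759 CPM in control, of regulatory T cells to 336 CPM and 399 CPM, of gamma-delta T cells to 14.8 CPM and 29.2 CPM, of type 2 innate lymphoid cells to 164 CPM and 240 CPM, and of helper T cells to 1.48 CPM and 2.13 CPM. Their part in the differences below was not tested beyond leaving out the cells that carried such markers. In 223 RHS cells (16.2%) and 51 control cells (10.5%), 3 or more UMIs fell on 38 markers of other cell types. Without those cells, 1156 RHS and 437 control cells remained, and 114 of 5586 genes were higher (2.04%) and 179 lower (3.20%). Of the genes with at least 20 counts in these cells, 164 of 7775 were higher (2.11%) and 335 lower (4.31%). Values from these cells are given below as values without marker-carrying cells.

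Granzyme A, B and K and perforin, the main cytotoxic proteins, stood at similar levels in the Cd8a T cells of both libraries. Of 18 measured genes of the cytotoxic granule list, 2 were higher in RHS, none was lower and 16 were not called, with a median log2 ratio of 0.13 in Cd8a T cells and -0.08 in the other kept cells. Among all genes with at least 20 counts, 3.81% were called higher and 4.78% lower. Gzma had 1469 CPM in RHS (4955 UMIs in 550 cells) and 1718 CPM in control (2416 UMIs in 193 cells), a ratio of 0.855 (0.814 to 0.898). Gzmb (ENSMUSG00000015437) had 1427 CPM in RHS (4813 UMIs in 875 cells) and 1325 CPM in control (1863 UMIs in 287 cells), a ratio of 1.08 (1.02 to 1.14). Gzmk had 191 CPM in RHS (643 UMIs in 435 cells) and 230 CPM in control (324 UMIs in 183 cells), a ratio of 0.827 (0.723 to 0.948). None of these reached 1.5-fold. Prf1, perforin, which lets granzymes enter the target, had 56.0 CPM in RHS (189 UMIs) and 47.7 CPM in control (67 UMIs), a ratio of 1.18 (0.886 to 1.58). Serpinb9 and Serpinb6b, whose products inhibit granzymes, had 565 CPM in RHS and 488 CPM in control (1.16) and 567 CPM in RHS and 418 CPM in control (1.36).

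The granzyme UMIs were spread unevenly over the cells. The tenth of Cd8a T cells with the most Gzma UMIs, 138 cells in RHS and 49 in control, held 71.2% of all Gzma UMIs in RHS and 75.5% in control. For Gzmb it held 50.01% in RHS and 54.4% in control. A cell with Gzma had a median of 4 UMIs in RHS and 5 in control, and at most 208 in RHS and 147 in control. The high carriers thus weighed on the mean levels in either library.

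Because control cells were deeper, shares of cells with a gene were also compared after each cell was thinned to 1000 UMIs, which kept 1346 RHS cells and 480 control cells and left out 33 and 8 shallower ones. Gzma was then found in 32.5% of RHS and 29.2% of control cells (39.9% and 39.5% unthinned), Gzmb in 50.5% and 45.0% (63.5% and 58.8% unthinned), and Gzmk in 16.2% and 20.6% (31.5% and 37.5% unthinned). Prf1 was found in 5.35% of RHS and 5.42% of control cells. In macrophages, which should lack Gzmb and had median depths of 5583 UMIs in RHS and 5967 in control, thinned cells carried Gzmb in 0.364% in RHS and 0.398% in control. The shares in Cd8a T cells lay far above this background. The plot of detection shows the same for most other T cell genes, with Il7r, the interleukin 7 receptor, found about as often in macrophages as in Cd8a T cells. Ccr7 also lay nearer to its share in macrophages, as given below.

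**Figure D2:**
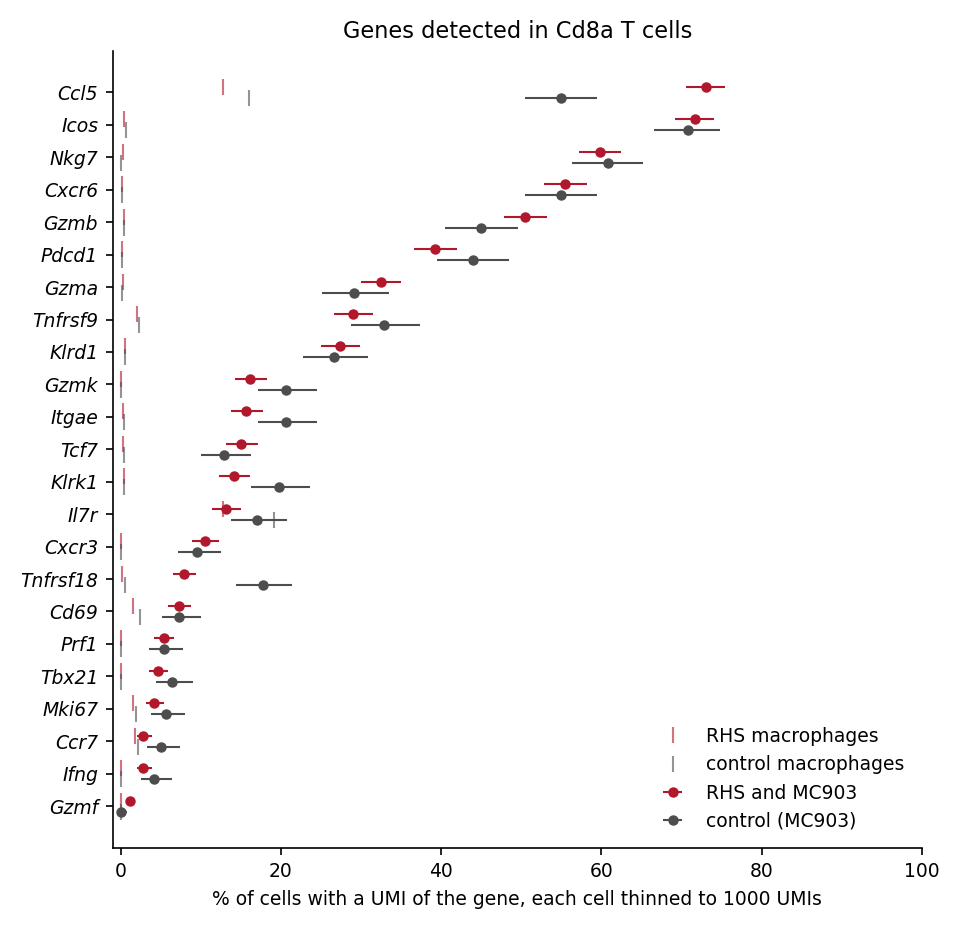
Share of Cd8a T cells with at least 1 UMI of a gene (x axis, percent) after thinning each cell to 1000 UMIs, in RHS (red) and control (grey), with exact 95% counting intervals; ticks mark thinned macrophages of the same library as background. Ccl5 stands at 73.0% in RHS and 55.0% in control and Tnfrsf18 at 7.88% and 17.7%, while Cxcr6, Icos and Nkg7 lie close together.

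Gene levels followed the T cell groups differently. Gzma stood at 18.9 CPM in RHS and 31.8 CPM in control in conventional Cd4 T cells, far under its level in Cd8a T cells of either library. Gzmk stood there at 8.73 CPM in RHS and 4.85 CPM in control. Gzmb was shared more widely, with 479 CPM in RHS and 279 CPM in control in conventional Cd4 T cells (ratio 1.72), and with 1374 CPM in RHS and 1070 CPM in control in Foxp3 Cd4 T cells, near its level in Cd8a T cells.

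Gzmf (ENSMUSG00000015441), granzyme F, was carried by 21 of 1379 RHS Cd8a T cells, or 1.52% (0.945 to 2.32), and by 1 of 488 control Cd8a T cells, or 0.205% (0.00519 to 1.14). The ratio of these shares was 7.43 (1.20 to 307). The 21 RHS cells held 104 Gzmf UMIs and the 1 control cell held 1, which is 30.8 CPM in RHS and 0.711 CPM in control, a ratio of 43.4 (7.61 to 1729) whose upper end is set by that single control UMI. By cell, the Gzmf UMIs in RHS numbered 31, 15, 9, 7, 6 and 5 in the 6 highest cells, 4 in each of 4 cells, 3 in 1 cell, 2 in each of 2 cells and 1 in each of 8 cells. The highest cell held 29.8% of them. After thinning to 1000 UMIs, Gzmf was found in 15 of 1346 RHS cells (1.11%) and in 0 of 480 control cells, which allows a share of up to 0.625% with a UMI, taken as 3 cells of the total. Carriers in RHS had a median depth of 2640 UMIs and the other RHS Cd8a T cells 2122. The contrast therefore rests on few cells, and on 1 library in each group.

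The promoters of granzyme F, of granzyme C (Gzmc, ENSMUSG00000079186), which was also higher in RHS, and of granzyme B, which was not called, are shown because the genes share a cluster on chromosome 14 and differ in these data. The sequences are from RefSeq (build GRCm38.p6), 250 bases before to 50 after each gene start, written 5′ to 3′ on the minus strand of chr14:56211358-56211657 for Gzmf, chr14:56234608-56234907 for Gzmc and chr14:56262285-56262584 for Gzmb. Each of the 3 genes had an entry. The counts were made on another build, GRCm39, so these positions do not apply to it. Capitals mark matches on either strand to 3 letter patterns, the Runx core TGTGGT, the cAMP response element TGACGTCA and the AP-1 pattern TGAGTCA.
Gzmf: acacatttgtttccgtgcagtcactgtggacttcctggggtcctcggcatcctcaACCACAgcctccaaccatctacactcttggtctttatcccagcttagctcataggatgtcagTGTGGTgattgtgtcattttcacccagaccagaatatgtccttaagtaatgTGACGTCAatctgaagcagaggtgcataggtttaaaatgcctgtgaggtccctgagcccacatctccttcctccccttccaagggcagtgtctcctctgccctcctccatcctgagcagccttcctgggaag
Gzmc: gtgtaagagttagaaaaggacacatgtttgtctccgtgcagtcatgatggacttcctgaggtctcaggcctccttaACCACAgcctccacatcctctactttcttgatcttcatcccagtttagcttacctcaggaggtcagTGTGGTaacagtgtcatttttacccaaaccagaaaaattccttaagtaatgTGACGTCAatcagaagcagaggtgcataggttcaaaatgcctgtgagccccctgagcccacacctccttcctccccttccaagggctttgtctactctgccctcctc
Gzmb: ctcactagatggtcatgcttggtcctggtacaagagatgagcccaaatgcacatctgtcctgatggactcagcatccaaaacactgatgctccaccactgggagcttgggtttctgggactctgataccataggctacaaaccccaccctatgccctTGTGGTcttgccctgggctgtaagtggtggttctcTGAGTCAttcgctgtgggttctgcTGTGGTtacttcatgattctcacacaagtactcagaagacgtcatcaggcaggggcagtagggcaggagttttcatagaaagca
The Runx core matched at 2 places in each of the promoters of Gzmf, Gzmc and Gzmb, and it is found in 16.8% of 32851 mouse promoters of this length. The cAMP response element matched once in Gzmf, 82 bases before the start, and once in Gzmc, 57 bases before it, and not in Gzmb, against 1.79% of all promoters. It also matched once in the promoter of Gzmg, which had 0 UMIs in the Cd8a T cells of either library, and not in those of Gzmd and Gzme. As given below, transcripts of the cluster share letters, so these counts are uncertain. A link of the element to the levels was not tested. The AP-1 pattern matched once in Gzmb and not in Gzmf or Gzmc, against 5.20% of all promoters. A match is a description of letters and not a bound site. Of 289 distinct stretches of 12 bases in the Gzmf promoter, 88 were also in that of Gzmg (30.5%), 86 in that of Gzme (29.8%), 83 in that of Gzmd (28.7%), 45 in that of Gzmc (15.6%) and 0 in that of Gzmb. The promoters closest to that of Gzmf by this measure thus belong to genes with 0 or 1 UMI in these cells.

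Transcripts of this cluster also share letters, which bears on how reads were assigned. Of 889 stretches of 31 bases in Gzmf transcripts (GENCODE vM21), 118 were found in Gzmg (13.3%), 98 in Gzmd (11.02%), 64 in Gzme (7.20%) and 30 in Gzmc (3.38%), and none in Gzmb, Gzma or Gzmk. In the last 300 bases, 42 of 270 were shared with Gzmg (15.6%) and 41 with Gzmd (15.2%), and none with Gzmc. The level of Gzmf is thus uncertain with respect to Gzmg, Gzmd and Gzme, and the sources used here do not state how shared reads were counted. Gzmd had 0 UMIs in the Cd8a T cells of either library, which, taken as 3 cells of the total, allows a share with a UMI of up to 0.218% of RHS cells and 0.615% of control cells and sets no limit on cells that express the gene. Gzme had 1 UMI in each library.

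The Gzmf carriers in RHS were strong granzyme B cells. Gzmb was found in each of the 21 carriers, against 62.9% of the other RHS Cd8a T cells, with 5122 CPM in carriers and 1345 CPM in the others. Gzma was found in 15 carriers (71.4%, against 39.4%), with 7876 CPM in carriers and 1328 CPM in the others, and Gzmc in 6 carriers (28.6%, against 1.69%). Of the 572 Gzma UMIs in carriers, 208 lay in 1 cell with 1 Gzmf UMI and 144 in another. Few cells thus set much of the Gzma level in carriers. The cell with 31 Gzmf UMIs also held 144 of Gzma, 7 of Gzmb and 9 of Gzmc. The cell with 15 Gzmf UMIs held 50 of Gzma and 25 of Gzmb, and the cell with 9 held 29 of Gzma and 92 of Gzmb. Gzmk was about as frequent in carriers (33.3%) as in the others (31.5%), and Prf1 was found in 1 carrier (13.8 CPM, against 57.0 CPM). Tnfrsf9, the activation receptor 4-1BB, was found in 17 carriers (81.0%, against 46.4%), Cxcr6, a receptor for tissue retention, in 19 (90.5%, against 74.8%), and Mki67, a gene of dividing cells, in 5 (23.8%, against 8.76%). Ccl5 stood lower in carriers, at 2644 CPM against 6210 CPM in the others. Lyz2 was found in 2 carriers (9.52%, against 24.3%), and Ncr1 in none. These shares compare cells of 1 library, carriers were deeper, and no test was made.

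**Figure D3:**
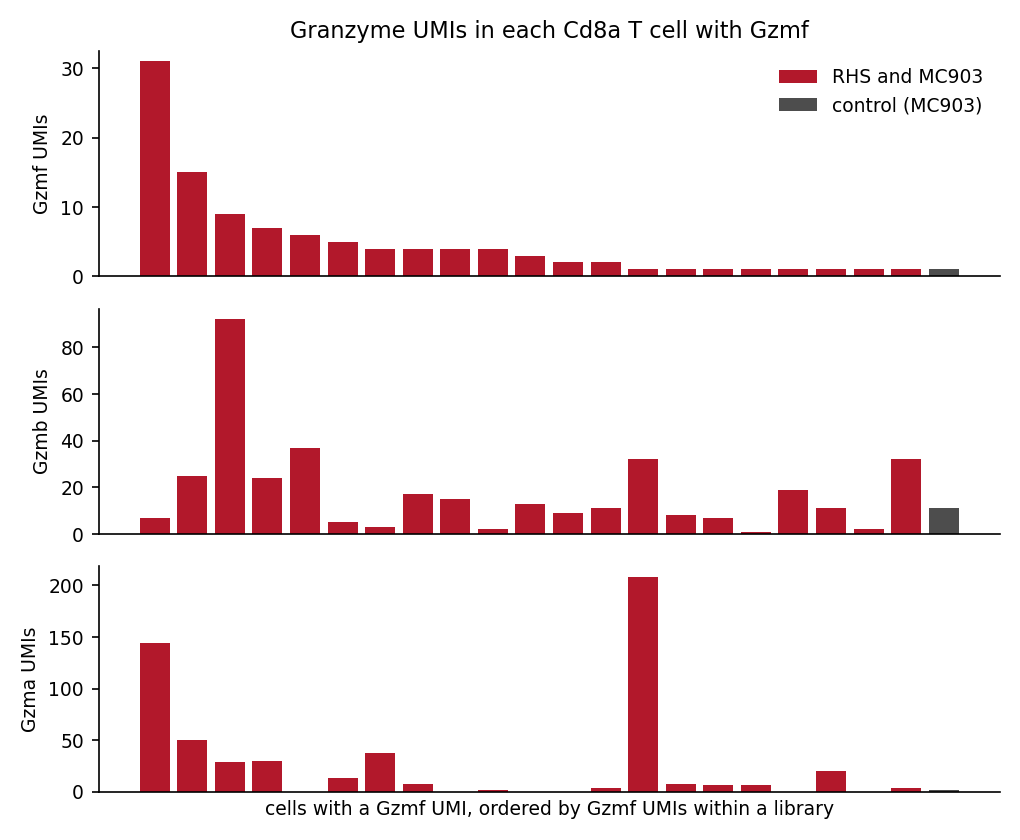
UMIs of Gzmf, Gzmb and Gzma (y axes) in each Cd8a T cell with a Gzmf UMI (x axis, 1 bar position per cell), with the 21 RHS cells in red and the 1 control cell in grey at the right. Gzmb is present in every carrier, while Gzmf UMIs are concentrated in the first cells, the highest with 31.

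Gzmf was not restricted to Cd8a T cells. Outside them, 12 kept RHS cells held 62 Gzmf UMIs and 15 kept control cells held 119. In RHS, 1 natural killer cell held 40 of the 62. Conventional Cd4 T cells with Gzmf numbered 2 in RHS and 2 in control, Foxp3 Cd4 T cells 1 and 4, macrophages 0 and 2, and keratinocytes 0 and 0. Over all these other cells the RHS over control ratio of Gzmf was 0.566, so the higher level in RHS was seen in Cd8a T cells and not in the rest as a whole. In conventional Cd4 T cells it was 3.38 on 5 UMIs in RHS and 2 in control. The difference between these ratios was not tested.

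Gzmc, granzyme C, had 39.4 CPM in RHS (133 UMIs in 29 cells) and 4.27 CPM in control (6 UMIs in 6 cells), a ratio of 9.24 (4.13 to 25.6). Of the 133 UMIs, 75 lay in 1 cell, and without the highest cell of each library the ratio was 4.84. Without marker-carrying cells it was 11.7 (4.89 to 36.7), and with both CD8 chains required in every cell it was 2.85, and with free RNA subtracted it was 52.1. In natural killer cells Gzmc stood at 1261 CPM in RHS and 4836 CPM in control.

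The chemokine Ccl5 was higher in RHS Cd8a T cells, on many UMIs spread over most of the cells. Of 9 measured type 1 cytokines and chemokines, 3 were higher and 1 lower, with a median log2 ratio of 0.20 in Cd8a T cells and 0.21 in the other kept cells. Without marker-carrying cells 1 of 7 was higher and 1 lower, and the median turned to -0.16. Ccl5, which draws T cells and myeloid cells, stood at 6133 CPM in RHS (20688 UMIs in 1102 cells) and 4082 CPM in control (5740 UMIs in 318 cells), a ratio of 1.502 (1.46 to 1.55). It was found in 73.0% of thinned RHS cells and 55.0% of thinned control cells, against 12.8% and 16.04% of macrophages. The ratio was 1.55 without marker-carrying cells, 3.22 in conventional Cd4 T cells, where the levels were 959 CPM in RHS and 297 CPM in control, and 1.15 in the other kept cells. Ccl3, another chemokine of inflamed tissue, stood at 101 CPM in RHS and 60.5 CPM in control (1.66), but at a ratio of 0.894 (0.578 to 1.41) without marker-carrying cells. Csf2, which encodes the growth factor GM-CSF, had 26 UMIs in RHS, 18 of them in 1 cell, and 1 in control, and a ratio of 0.937 without marker-carrying cells. Ccl4 had a ratio of 0.981.

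Interferon gamma was the called lower one. Ifng stood at 26.98 CPM in RHS (91 UMIs) and 41.3 CPM in control (58 UMIs), a ratio of 0.654 (0.465 to 0.925), and it was found in 2.82% of thinned RHS cells and 4.17% of thinned control cells. The call rests on few UMIs, since without the highest cell of each library the ratio was 0.706 (0.495 to 1.01), and it stood short of 1.5-fold with 3 receptor complex genes required (0.692), doublets removed (0.677), the exclusion genes not used (0.696) or free RNA subtracted (0.674). The ratio was lower in conventional Cd4 T cells (0.311) and in the other kept cells (0.220). The cytokines Areg and Il17f, outside type 1, were also lower in RHS Cd8a T cells. Areg, amphiregulin, a growth factor for epithelial repair, stood at 22.8 CPM in RHS (77 UMIs) and 80.4 CPM in control (113 UMIs), a ratio of 0.284 (0.210 to 0.383), against 0.884 in conventional Cd4 T cells and 0.771 in the other kept cells. Without marker-carrying cells it was 0.222 (0.152 to 0.320). Il17f, of interleukin 17 responses, had 5 UMIs in RHS and 29 in control, 13 of them in 1 cell. The list of type 2 and 17 cytokines had no other member with 20 counts, and the median log2 ratio of these 2 was -2.81.

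By list median, genes of tissue residency and of circulation differed little. Among all genes with at least 20 counts, 3.81% were called higher and 4.78% lower. Of 15 measured resident memory genes, 1 was higher and 1 lower (median log2 ratio 0.17). The higher one was Fabp4, a fatty acid carrier, at a ratio of 5.47 with 92 of 210 UMIs in 1 RHS cell, and 1.23 (0.677 to 2.34) without marker-carrying cells. The lower one was Cd101, a surface protein of resident cells, at 17.8 CPM in RHS and 34.9 CPM in control (0.510). Itgae, the integrin CD103 that anchors cells to E-cadherin, stood at 189 CPM in RHS and 276 CPM in control, a ratio of 0.685 (0.603 to 0.780) just short of 1.5-fold. It was found in 15.7% of thinned RHS cells and 20.6% of thinned control cells, and its ratio was 0.535 in conventional Cd4 T cells. Itga1, the collagen-binding integrin CD49a, stood at 130 CPM in RHS and 103 CPM in control (1.26), and Cxcr6 was found in 55.5% of thinned RHS cells and 55.0% of thinned control cells. Of 15 measured naive and circulating genes, 2 were higher and none lower (median log2 ratio 0.01). These were Ly6c1 (9.24) and Igfbp4 (7.50), with 70 of 133 and 35 of 54 RHS UMIs in 1 cell, and neither was called without marker-carrying cells. In those cells the chemokine receptor Ccr7 was called lower at 0.657 (0.499 to 0.868). With all Cd8a T cells Ccr7 stood at 0.673 (0.541 to 0.838), just short of the call. Its ratio was 0.685 in the other kept cells and 1.025 in conventional Cd4 T cells. Ccr7 was found in 2.82% of thinned RHS cells and 5.00% of thinned control cells, against 1.78% and 2.16% of thinned macrophages. Tcf7, a transcription factor of memory cells, stood at 168 CPM in RHS and 167 CPM in control.

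Among 20 transcription factors of effector and memory cells, 1 was higher and 2 were lower (median log2 ratio -0.20, against -0.22 in the other kept cells). Nr4a2, an orphan nuclear receptor induced by receptor and cAMP signals, stood at 131 CPM in RHS (442 UMIs) and 73.3 CPM in control (103 UMIs), a ratio of 1.79 (1.44 to 2.24). No RHS cell held more than 6 of its UMIs, and the ratio was 1.84 without marker-carrying cells, 1.17 in conventional Cd4 T cells and 1.07 in the other kept cells. Ikzf2, Helios, was lower at 65.2 CPM in RHS and 121 CPM in control (0.539). Id3 was lower on few UMIs, 18 in RHS and 28 in control, and on too few to compare without marker-carrying cells. Tbx21, T-bet, stood at 45.1 CPM in RHS and 65.4 CPM in control (0.689), and Eomes, its relative, had a ratio of 1.42, neither called.

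Surface receptors were mostly close. Of 12 measured inhibitory receptors (median log2 ratio -0.09), Cd244a (2B4) was higher at 16.3 CPM in RHS (55 UMIs) and 7.11 CPM in control (10 UMIs), a ratio of 2.29 (1.16 to 5.04), and Cd160 was lower at 42.1 CPM in RHS and 63.3 CPM in control (0.665, but 0.732 and not called without marker-carrying cells). Pdcd1 (PD-1) stood at 647 CPM in RHS and 699 CPM in control (0.926) and Ctla4 at 199 CPM and 193 CPM (1.03). Of 15 measured costimulatory receptors, 2 were lower and none higher (median log2 ratio -0.14). Tnfrsf18, the receptor GITR, stood at 81.2 CPM in RHS and 203 CPM in control, a ratio of 0.401 (0.338 to 0.475), and was found in 7.88% of thinned RHS cells and 17.7% of thinned control cells. The conventional Cd4 T cells (0.418) and the other kept cells (0.370) had ratios of like size. Tnfrsf4, the receptor OX40, stood at 22.8 CPM in RHS and 37.7 CPM in control (0.606).

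Of 11 measured natural killer receptor genes, 4 were higher, against 3.81% of all genes with at least 20 counts, and none was lower (median log2 ratio -0.03). Besides Cd244a these were Fcer1g (159 CPM in RHS and 83.9 CPM in control, ratio 1.89), Tyrobp (115 and 64.0 CPM, ratio 1.79), both adaptor chains that myeloid cells also express, and Fcgr3, an Fc receptor (2.50). Without marker-carrying cells, Fcer1g stayed at 1.81 (1.19 to 2.82) and Tyrobp stood at 0.825 (0.470 to 1.48). Fcgr3 then had 11 UMIs in RHS and 3 in control and was not compared. Klrk1, the activating receptor NKG2D, stood at a ratio of 0.696 and was not called. None of 14 measured chemokine receptor and homing genes and none of 22 cytokine receptors was called in either direction, with median log2 ratios of 0.06 and -0.00022. Without marker-carrying cells, Il1rl1, the alarmin receptor ST2, was called lower at 0.354 (0.220 to 0.565). Of the chemokine receptors, Cxcr3 stood at 108 CPM in RHS and 115 CPM in control (0.934).

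Of 20 measured proliferation genes, 5 were lower in RHS, none was higher and 15 were not called, with a median log2 ratio of -0.50 in Cd8a T cells and -0.45 in the other kept cells. Among all genes with at least 20 counts, 4.78% were called lower. Rrm2, a subunit of the enzyme that makes deoxyribonucleotides, stood at 46.3 CPM in RHS and 89.6 CPM in control (0.516), Ccna2, cyclin A, at 37.1 CPM and 69.7 CPM (0.532), and Pclaf, a partner of the replication clamp, at 130 CPM and 226 CPM (0.577). Top2a, a topoisomerase, had a ratio of 0.645 and Tk1, thymidine kinase, 0.317. Without marker-carrying cells 4 of 18 were lower, and Top2a, at 0.717, was no longer called. Mki67 was found in 124 RHS cells and 72 control cells (ratio of levels 0.758, not called), which is 4.16% of thinned RHS cells and 5.62% of thinned control cells.

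Interferon response genes had 6 lower and no higher members among 32 measured, with a median log2 ratio of -0.21 in Cd8a T cells and -0.04 in the other kept cells. Among all genes with at least 20 counts, 4.78% were called lower and 3.81% higher. Ifi27l2a stood at 65.2 CPM in RHS (220 UMIs) and 141 CPM in control (198 UMIs), a ratio of 0.463 (0.381 to 0.564), against 0.668 in conventional Cd4 T cells and 0.739 in the other kept cells. Ifi213 (0.514), Ifi206 (0.660), Oas3 (0.542), Ifit3 (0.550) and Irf7 (0.486), a transcription factor of the response, were the others. Without marker-carrying cells Ifi206 (0.671) was no longer called and Irf7 had too few UMIs to be compared, and Ifit1 (0.529) was called lower. Without the highest cell of each library, Ifit3 (0.527, 0.277 to 1.02) and Oas3 (0.609, 0.3604 to 1.05) had intervals that hold 1, and Ifi206 (0.669) fell short of 1.5-fold. Slfn5 had the highest ratio of the list, 2.00, and was not called. Of the 15 antigen presentation genes of MHC class I (median log2 ratio 0.08), Psmb8, an immunoproteasome subunit, was lower at 264 CPM in RHS and 415 CPM in control (0.637), and B2m, the light chain, stood at 5069 CPM and 4595 CPM (1.10).

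**Figure D4:**
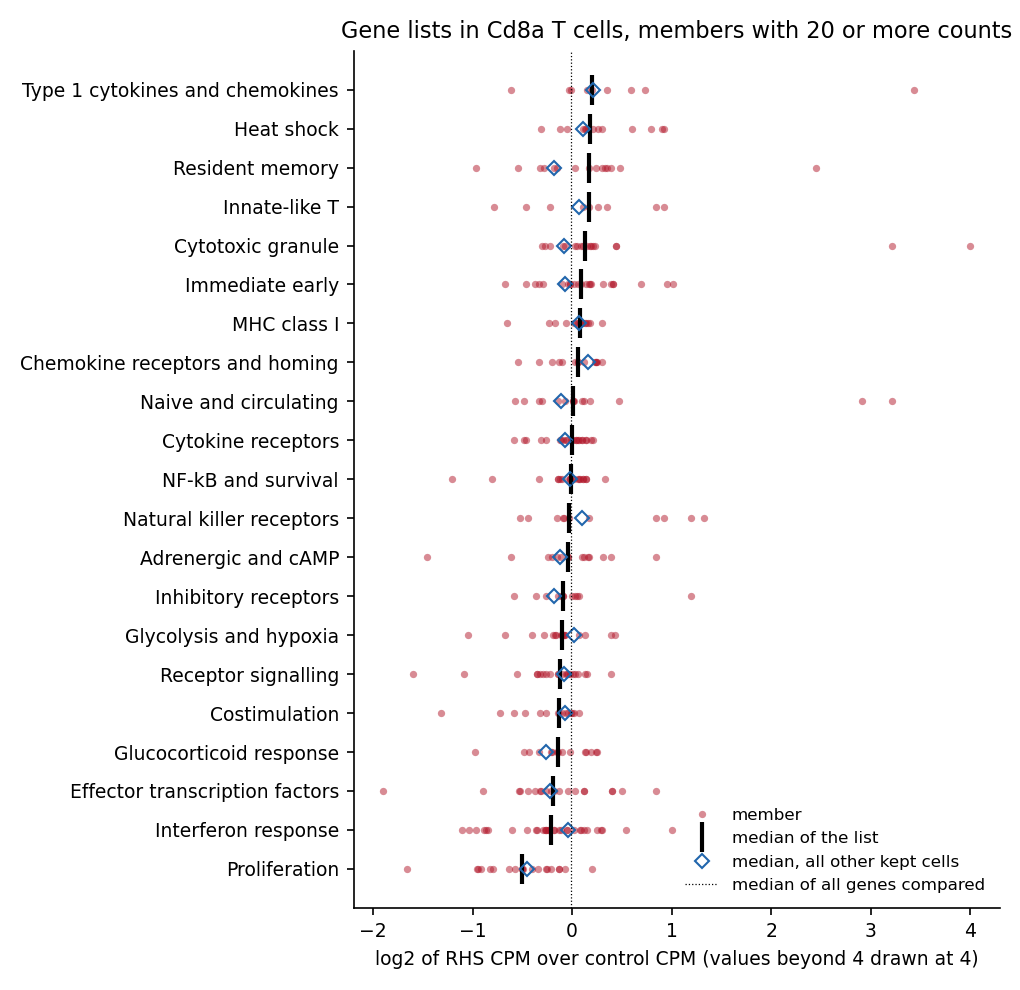
Log2 of the RHS over control ratio (x axis) of each measured member (red points) of the gene lists in Cd8a T cells, with the list median (black bar), the median of the same list in all other kept cells (blue diamond) and the median of all genes (dotted line). The list of type 2 and 17 cytokines, with 2 measured members, is not drawn; proliferation genes have the lowest median drawn, -0.50.

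Stress and stimulus genes were called higher mainly with the marker-carrying cells included. Of 14 heat shock genes (median log2 ratio 0.18), 4 were higher (Hspb1 at 1.90, Bag3 at 1.88, Dnajb4 at 1.73 and Hspa1a at 1.51) and none lower, and without marker-carrying cells none was called in either direction. Among all genes with at least 20 counts, 3.81% were called higher with all Cd8a T cells. Hspa1a had 570 UMIs in 119 RHS cells, 151 of them in 1 cell, and 157 UMIs in 24 control cells. Of 23 immediate early genes, which respond within minutes to a stimulus (median log2 ratio 0.09), 2 were higher, Ier3 (1.94) and Atf3 (1.62). Without marker-carrying cells, Ier3 stood at 1.84 (1.01 to 3.58) and Atf3 at 1.12 (0.518 to 2.63). Fosb was then called lower at 0.652 (0.502 to 0.849), and the median of the list turned to -0.05.

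Genes of hormone and cAMP responses had small list medians, and adrenergic and cAMP genes were called in both directions. For all 8549 genes with at least 20 counts, the shares called were 3.81% higher and 4.78% lower. Nr3c1, the glucocorticoid receptor, stood at 205 CPM in RHS and 237 CPM in control, a ratio of 0.864 (0.757 to 0.987). Of 15 measured adrenergic and cAMP genes (median log2 ratio -0.04), Nr4a2 was higher, and Ppp1r15a, a stress response phosphatase subunit (0.652), and Prkaca, a catalytic subunit of protein kinase A (27 UMIs in RHS and 31 in control, 0.363), were lower. Crem, a repressor and activator of cAMP response elements, stood at 862 CPM in RHS and 806 CPM in control (1.07). Of 15 measured glucocorticoid response genes, 1 was lower and none higher (median log2 ratio -0.14). This was Mt2, a metallothionein, at 89.2 CPM in RHS and 175 CPM in control (0.510), and it was lower by more in the other kept cells (0.160). Tsc22d3 (0.871) and Fkbp5 (1.09), 2 common targets of the glucocorticoid receptor, were not called.

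The lists of glycolysis and hypoxia, of NF-kB and survival and of receptor signalling each had 2 lower genes and no higher one. Over all 8549 genes with at least 20 counts, 4.78% were called lower. With 2 calls in each list, any difference from this share rests on very few genes and was not tested. Eno1, an enzyme of glycolysis, was lower at 104 CPM in RHS and 214 CPM in control (0.486), with ratios of 0.476 in conventional Cd4 T cells and 0.588 in the other kept cells, and Slc2a1, a glucose transporter, was lower at a ratio of 0.625, which without marker-carrying cells was 0.673 (0.420 to 1.09) and not called. These were the 2 calls among 16 genes of glycolysis and hypoxia, whose median log2 ratio was -0.10. Of 20 NF-kB and survival genes (median log2 ratio -0.01), Rela, an NF-kB subunit (0.433), and Bcl2, a survival protein (0.573), were lower. Of 22 genes of receptor signalling (median log2 ratio -0.12), Vav1 (0.331) and Trat1 (0.471) were lower. Vav1 was also low outside Cd8a T cells, at 0.366 in conventional Cd4 T cells and 0.399 in the other kept cells. The list of innate-like T cell genes had 2 higher members of 9, again Fcer1g and Tyrobp (median log2 ratio 0.17). The median turned to -0.28 without marker-carrying cells, with 1 higher and 1 lower of 7, and to -0.25 with free RNA subtracted, and was 0.97 with both CD8 chains required.

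Over all genes, those named by rank add mostly single genes. The rule took the 15 highest and 15 lowest ratios among called genes that stood, in the higher library, at least at the level of the other kept cells, which left 59 higher and 182 lower genes to choose from. Behind Gzmf, Klk7 and Gzmc, the higher genes had ratios from 1.97 to 3.23. Klk7, a protease of keratinocytes, had 103 of its 112 RHS UMIs in 1 cell and a ratio of 1.88 without the highest cells. Nrgn, a calmodulin-binding protein, stood at 3.23 (62 UMIs in RHS and 8 in control), and at 3.44 in conventional Cd4 T cells. Slc15a2, a peptide transporter, had the most UMIs of these genes, 186 in RHS and 36 in control, a ratio of 2.15 (1.501 to 3.17). It stood at 0.928 in conventional Cd4 T cells, and at 2.19 in Cd8a T cells without marker-carrying cells. Trim21, an antibody receptor of the cytosol, had a ratio of 2.18 (1.19 to 4.30), Drosha, the nuclear enzyme of microRNA processing, 2.05, and Igf2bp3, an RNA-binding protein, 2.03. Riox1, Rabepk, Sertad3, Cpm, Camsap1 and Trim32 were others. Without marker-carrying cells the intervals of Rabepk (1.958, 0.9993 to 4.19) and Trim32 (1.78, 0.870 to 4.01) held 1, and Cpm stood at 1.03 with the exclusion genes not used.

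Most of the lowest genes were about as low in other cells. Ppp1ca, a catalytic subunit of protein phosphatase 1, had 229 UMIs in RHS and 455 in control, a ratio of 0.210, with 0.192 in conventional Cd4 T cells and 0.223 in the other kept cells. Cnn2, an actin-binding calponin, had 0.268 in Cd8a T cells and 0.287 in the other kept cells. Vav1, Park7, Smarcd2, Tnfrsf18, Psmd13, Prelid1, Abca2, Siva1, Atp2a3 and Nudt3 lay likewise close to the other kept cells. Dividing each ratio by that of the other kept cells left 92 genes lower in place of 230, and 324 higher in place of 218. Chst2, a sulfotransferase, stood at 0.326 in Cd8a T cells, 0.342 in the other kept cells and 0.610 in conventional Cd4 T cells. Ust, a sulfotransferase of dermatan sulfate, stood apart from this, with 63 UMIs in RHS and 64 in control (0.410, 0.285 to 0.590), against 1.14 in conventional Cd4 T cells and 0.892 in the other kept cells. Spc24, a kinetochore protein, stood at 0.395, against 0.868 and 0.619.

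**Figure D5:**
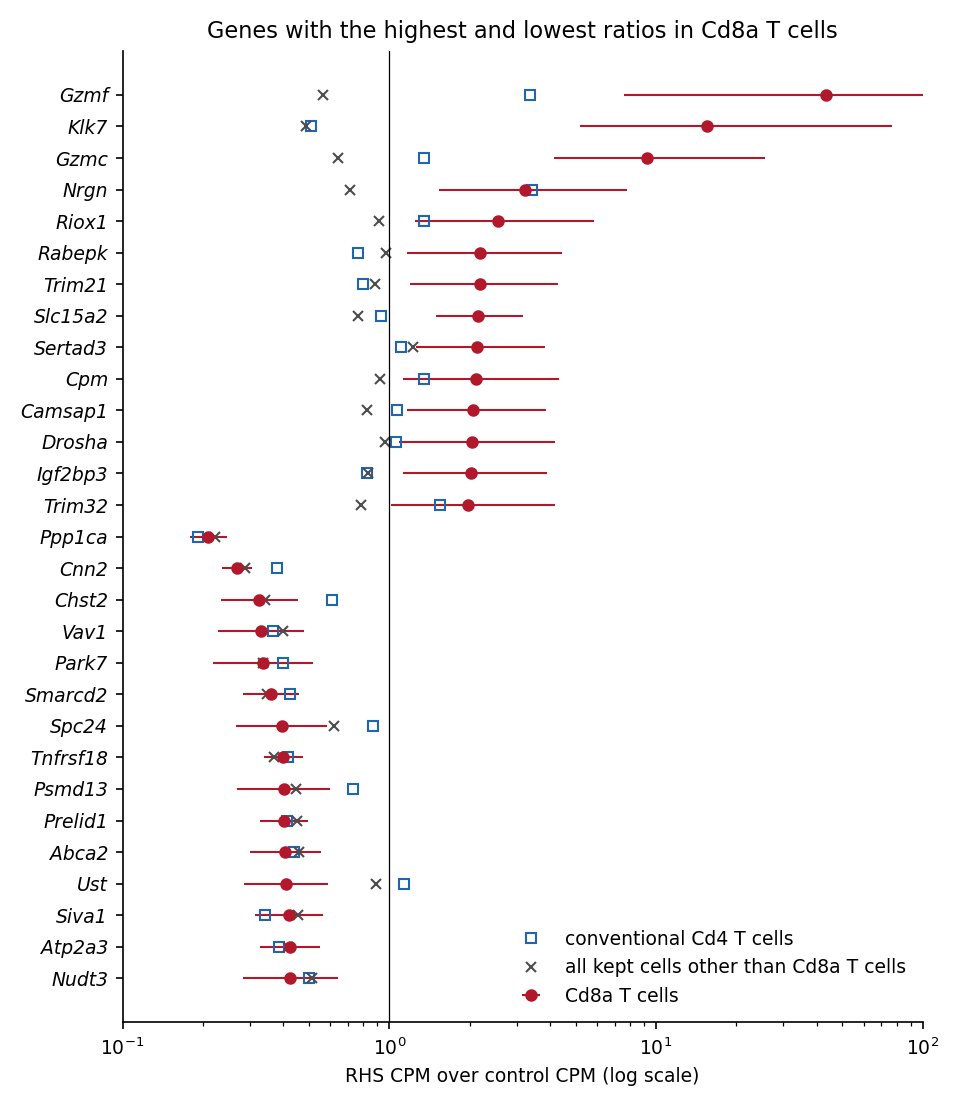
RHS over control ratio of CPM (x axis, log scale) of the named genes with the highest and lowest ratios in Cd8a T cells (red, with exact 95% counting intervals, that of Gzmf running past the axis to 1729), in conventional Cd4 T cells (blue squares) and in all other kept cells (grey crosses). Among the lowest genes most crosses lie beside the red points, for example Ppp1ca at 0.223 and 0.210, while Ust and Spc24 lie apart.

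Few cells gave a variable segment of their receptor. A UMI of an alpha chain variable gene (Trav) was found in 11 RHS cells (0.798%) and 5 control cells (1.02%), and one of a beta chain variable gene (Trbv) in 15 RHS cells (1.09%) and 1 control cell (0.205%). The clonal make-up of the cells cannot be read from these libraries.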

How the data were processed

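Single-cell RNA of CD45-selected mouse skin cells was measured in 2 libraries, RHS with MC903 and MC903 alone. The deposited matrices hold UMI counts per gene and cell, not normalized, whole numbers over 31253 genes per the file headers. R 3.6.0, Seurat 5.1.0 and Cell Ranger, and the build GRCm39, are named in the submitters' processing notes, with no role given. The deposited cells each had at least 500 UMIs. Filters applied by the authors before deposit and how reads shared by paralogs were counted are not given in the sources used here.

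Cells were kept and chosen as stated at the start of the results, with no clustering. UMI counts were summed over the chosen cells of a library, divided by all their UMIs (CPM) and compared with exact intervals in Python 3.11.15 (scipy 1.17.1, pandas 2.3.3, numpy 2.4.6). A gene was compared with at least 50 counts (20 for gene lists) in the higher library, and called at 1.5-fold with a 95% interval that leaves out 1. The calculation was run on simulated Poisson counts with known folds, the model that the intervals assume. Such counts do not cluster by cell as the real UMIs did, so this checks the calculation and not the calls. Scrublet in scanpy 1.11.5, at an expected doublet share of 6%, called 131 RHS cells (1.00%) and 147 control cells (1.16%), 24 and 6 of them Cd8a T cells; these were kept, and left out in an alternative. The members, the 22 gene lists and the 17 marker lists were chosen with earlier results of these data known. Named genes are the 15 highest and 15 lowest called genes at or above the level of the other kept cells (no gene of mitochondria, ribosomes, haemoglobin, the antigen receptor or the sex chromosomes, and no predicted gene), the 3 highest and 3 lowest members of each list with 20 counts, 20 leading genes, and Cd8a, Cd8b1, the granzymes A to F and K, Prf1, Ifng and Nr3c1. Some genes that the rule names are not reported here. Of the list members the text gives mainly those called, and further members it gives were chosen after their values were seen. Alternatives changed the gate, cell filters, doublets, depth, count minimum, scaling, free RNA and fold; 4 more, chosen after seeing the data, changed the denominator, left out marker-carrying cells, divided by the other kept cells, or left out the highest cell of a gene.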

Additional observations from a re-analysis of the deposited data

Results flagged for a closer look

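Of the T cell groups, the shares of Cd8a T cells and of conventional Cd4 T cells moved in opposite directions between the 2 libraries. Both are shares of the same total and so are not independent, and how much of the lower Cd4 share goes with this was not tested. The share of kept cells that were conventional Cd4 T cells had an RHS over control ratio of 0.8629 (0.7688 to 0.9682), while that of Cd8a T cells was 2.751 (2.480 to 3.057). With 1 library a group the difference between these ratios was not tested.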

How the results depend on the processing

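The Cd8a T cell share had a ratio of 2.751 and stood between 2.643 and 2.868 under changes of the gate, cell filters, doublets and depth; it was 2.204 among Ptprc cells and 2.317 among cells with 2 or more receptor complex genes. Among Cd8a and Cd4 T cells the ratio of 1.783 was 1.569 after thinning every cell before the gate. The Gzmf share in RHS, 1.523%, ranged between 1.089% with thinning and 2.002% with both CD8 chains required. The 218 higher genes became 135 with 100 counts, 100 with 2-fold and 114 without marker-carrying cells. The 230 lower genes became 409 with 20 counts, 101 with 100 counts, 53 with 2-fold and 92 relative to the other kept cells. Relative to the other kept cells, Atp2a3 stood at 1.016, Park7 at 1.001, Smarcd2 at 1.037 and Tnfrsf18 at 1.083. These genes were thus about as low in the other kept cells as in Cd8a T cells. Klk7 turned to 0.9962 with both chains required and 0.4683 without marker-carrying cells. Of 242 recomputed list medians, 239 stayed within the typical counting error of the members and 3 moved further. No paired analysis was possible because each group has 1 library, so no replicate could be left out either. Genes with under 20 counts were not compared, and a gene seen in few cells, such as Gzmf, can turn on 1 cell.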

Other observations

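Within the Cd8a T cells, detected genes formed partly separate sets, given here for cells thinned to 1000 UMIs. Cells with Gzma carried Gzmb in 67.3% in RHS and 67.1% in control, against 42.5% and 35.9% of cells without Gzma. Tcf7, a memory transcription factor, was found in 8.47% of Gzma cells in RHS and 5.71% in control, against 18.3% and 15.9% of cells without Gzma. Cells with Gzmk carried Gzma in 43.6% in RHS and 41.4% in control, against 30.3% and 26.0% of cells without Gzmk. These pairs had the same order in both libraries.

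Cells with Itgae, the integrin CD103, carried Ccl5 less often, in 52.6% in RHS and 31.3% in control, against 76.8% and 61.2% of cells without Itgae. Their Gzma was also less frequent, at 26.1% in RHS and 19.2% in control, against 33.7% and 31.8%. Gzmk and Gzmb went together more in control than in RHS, with Gzmb in 53.2% of Gzmk cells in RHS and 69.7% in control, against 564 of 1128 and 147 of 381 cells without Gzmk. Shares within 1 library are a description of its cells, with no test, and genes seen in 1 UMI can be missed in cells that express them.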
